A study of Homo sapiens with 6 samples.

Results

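HBZ, HBE1, HBG1 and HBG2 encode the embryonic and fetal chains of human hemoglobin. The 4 genes were chosen by name and found by matching the transcript identifiers of the count tables to gene symbols, and all 4 were present among 37111 genes. Untreated K562 cells, a line from a chronic myelogenous leukemia, were grown in one flask per the methods, and gave 4 libraries of total RNA and 2 of PRO-seq. Total RNA freed of rRNA was sequenced (RNA-seq) to measure the RNA that the cells hold, and PRO-seq measures nascent RNA on engaged RNA polymerases. No treatment or genotype was compared, the contrast is that of one assay with the other, and since nothing states that the replicates were separate cultures, p-values measure the spread between libraries only.

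A hemoglobin molecule pairs α-like chains with β-like chains, each made from its own gene cluster. HBZ encodes ζ-globin, the embryonic α-like chain, HBE1 encodes ε-globin, the embryonic β-like chain, and HBG1 and HBG2 encode the Aγ and Gγ chains of fetal hemoglobin. Erythroid cells switch from embryonic to fetal and then to adult genes during development, and globin mRNAs are textbook cases of long-lived mRNAs, held by proteins that bind their 3′ ends. K562 cells are known for expressing the embryonic and fetal genes rather than adult β-globin.

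HBG1 and HBG2 are near copies. Their coding sequences in the GENCODE transcripts shared 99.55% of 444 bases, and their mRNAs of 587 and 586 bases differed by 4 substitutions and 1 gap base. Coding positions are counted from 1 at the A of the start codon. The substitutions C227T in exon 2 and C410G in exon 3, written from HBG1 to HBG2, were the 2 differences in the coding sequence, and the other 3 lay in the untranslated part of exon 3. Within these mRNAs, only a read across a difference, coding or untranslated, can be given by its sequence to one copy rather than the other. The 29 bases around each coding substitution are shown, with the differing base in capitals.
HBG1, exon 2: cttgggagatgccaCaaagcacctggatg
HBG2, exon 2: cttgggagatgccaTaaagcacctggatg
HBG1, exon 3: gaagatggtgactgCagtggccagtgccc
HBG2, exon 3: gaagatggtgactgGagtggccagtgccc
The other pairs were further apart. HBE1 shared 83.56% of its coding bases with HBG1 and with HBG2. HBZ, from the other cluster, shared 55.41% with HBE1 and with HBG1 and 55.63% with HBG2, gaps included. Exon 2 of HBZ was identical over 205 bases to exon 2 of HBZP1, the neighbouring ζ-globin pseudogene.

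The labels of the count tables name the longest transcript of each gene as the unit counted, here called a transcription unit (TU), which for 3 of the 4 genes was not the usual 3-exon globin mRNA. For HBZ the counted transcript was longer than that mRNA by its span but not by its exons. Coordinates are on GRCh37, from GENCODE release 44, and the authors' own counts were made on GRCh38. HBG1 was counted on its 3-exon mRNA, at chr11:5269499-5271087 on the minus strand, with 587 exon bases and a span of 1589 bp. HBG2 was counted on chr11:5274420-5526835, a minus-strand transcript of 3 exons and 694 exon bases that spans 252416 bp. Its first exon, of 255 bases, lies far upstream at chr11:5526581-5526835, and its other exons held 74.91% of the 586 bases of the 3-exon mRNA.

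HBE1 was counted on chr11:5289575-5526882, also on the minus strand, with 4 exons, 918 exon bases and a span of 237308 bp. All 623 bases of its 3-exon mRNA lay in the counted exons, beside 295 further bases. HBZ was counted on chr16:192727-203963 on the plus strand, with 3 exons, 547 exon bases and a span of 11237 bp. Only 185 bases, 23.18% of the 798-base mRNA, lay in its counted exons, and 362 counted exon bases lay in a first exon upstream of the gene. The counted RNA of HBZ was thus mostly outside its 3-exon mRNA, whereas that of HBE1 covered the mRNA fully.

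Other counted TUs overlap these genes on the same strand. ENSG00000284931 is a readthrough TU that joins HBG2 to HBG1 (chr11:5269500-5276013) and shares 218 of the 219 bases of the last HBG1 exon. The middle exon of HBG2, of 223 bases, was wholly shared with ENSG00000284931 and in part also with ENSG00000239920, a TU of chr11:5275622-5699664. The last counted exon of HBZ, of 73 bases, was shared with HBM, the gene of μ-globin, an α-like chain of low expression. The deposited counts set apart records labelled ambiguous, 1.53% to 1.65% of RNA-seq records and 0.943% and 0.819% in PRO-seq replicates 1 and 2. Neither the strand setting of the authors' counting nor its rule for a read in several TUs is stated in the sources used here.

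For PRO-seq, 500 bp were left out at each end of a TU per the methods, which leaves 589 bp for HBG1, 10237 bp for HBZ, 236308 bp for HBE1 and 251416 bp for HBG2. The share of this window that lay inside the 3-exon gene was 100% for HBG1, 8.02% for HBZ, 0.466% for HBE1 and 0.434% for HBG2. No base of the HBE1 window belonged to HBE1 alone on this annotation, and 1 base of the HBG1 window did. HBG1 nevertheless held 31 and 32 PRO-seq counts, although no read fits inside 1 base. Whether these were reads that overlapped that base in part or reads in several TUs was not tested. How far this map describes the authors' assignment of reads, for HBE1 as well, was not tested either. The 608 bases of HBG2 alone ran from 110 bases before the 3-exon mRNA start to base 498 after it, the stretch next to the promoter that leaving out 500 bp is meant to avoid. Of all 18964 mRNAs, 3.36% had no PRO-seq base of their own, so that HBE1 and, nearly, HBG1 belonged to a small minority.

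A read can be placed on one gene without doubt where its sequence occurs once in the genome and lies in 1 TU. To see how much of each gene meets this, each mRNA was cut into all overlapping windows of 75 bases, the length of the RNA-seq reads. Of the 549 windows of HBE1, 98.2% were unique and in its own TU. Of the 513 windows of HBG1, 61.0% occurred more than once, 24.4% were shared with another TU, and 75 windows, or 14.6%, were left. These 75 windows all cross the base C227T, so HBG1 could be told from HBG2 within its own TU by 1 base; whether K562 carries it was not tested.

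HBG2 had 61.1% repeated windows and 24.2%, or 124 of 512, of its own. HBZ had 55.4% repeated windows, 29.4% in no counted exon and 15.2%, or 110 of 724, of its own. In the gene bodies, which PRO-seq reads, 99.4% of the HBE1 windows lay in several TUs at once. HBG1 had 1 window of its own among 1515 in its gene body, HBG2 had 75 of 1520 and HBZ had 501 of 1786. The gene-body windows kept the length of the RNA-seq reads, whereas per the methods PRO-seq was sequenced with longer reads before trimming. Their shares may thus differ for PRO-seq reads.

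The 4 genes made up 0.392% ± 0.0152 (SD, n = 4) of the RNA-seq counts and 0.000859% ± 7.04e-05 (SD, n = 2) of the PRO-seq counts on matched TUs. Depth ranged from 5732780 to 9002746 counts on TUs over the RNA-seq libraries, and was 6993816 and 7245632 for PRO-seq. Levels are given as TPM, a share of all transcripts in which counts are first divided by exon length for RNA-seq and by the span minus 1000 bp for PRO-seq. The 6 markers of K562 given here were above 1 TPM, and their summed level ranged from 1331 to 1380 TPM over the RNA-seq libraries. They were TFRC at 631.8, GYPC at 383.4, GATA1 at 155.4, LMO2 at 83.69, TAL1 at 79.7 and EPOR at 10.76 TPM. LMO2, TAL1 and EPOR were thus below CD3D and EPCAM, markers of other cells given next, and TFRC, GYPC and GATA1 above both. Of the markers of other blood cells, 1 of the 6 present in the tables (CD3D, 108.9 TPM) was above 1 TPM, with a summed level of 108.4 to 112.8 TPM. Of those of other tissues, 2 of 5 were (EPCAM, 119.8 TPM, and COL1A2), with a summed level of 119 to 125.1 TPM, and INS was at 0. The part of these genes in the globin levels was not tested, and in bulk RNA fewer cells with a transcript and less of it per cell cannot be told apart.

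HBG2 had the highest RNA level of the 4 genes. It held 16142, 18705, 10827 and 13669 counts in RNA-seq replicates 1 to 4, or 5981, 6567, 5973 and 6572 TPM (mean 6273 ± 342, SD, n = 4), and ranked 6 among 18964 mRNAs. Replicates 1 and 3 were alike, and so were 2 and 4, with the second pair 1.10 times higher. The pairs also differed in the share of records that aligned to more than one place, 27.96% and 27.93% against 24.94% and 24.47%, and the part of this in the HBG2 level was not tested.

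HBE1 came next in RNA. Its levels were 3057, 3196, 3033 and 3099 TPM (mean 3096 ± 71.7, SD, n = 4), rank 38, from 10914, 12041, 7273 and 8527 counts. No HBE1 library reached the level of an HBG2 library, and the ratio of HBG2 to HBE1 lay between 1.96 and 2.12. HBG1 followed with 1757, 1882, 1755 and 1908 TPM (mean 1826 ± 80.9, SD, n = 4), rank 65, from 4011, 4534, 2691 and 3357 counts. The HBG1 levels were below all HBE1 levels and had the same pairing of replicates as HBG2, with the second pair 1.08 times higher.

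HBZ was far lower than the β-like genes, on a counted transcript that held 23.18% of its mRNA. It had 27, 31, 22 and 18 counts, or 12.69, 13.81, 15.4 and 10.98 TPM (mean 13.2 ± 1.86, SD, n = 4), rank 6808. The value describes the counted transcript and not the ζ-globin mRNA, of which 401 windows are repeated and 213 lie outside every counted exon. HBZP1, the pseudogene that shares exon 2, had 1 RNA-seq count in 1 library and none in the others.

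By RNA-seq TPM, HBG2 thus made up 55.95% ± 0.672, HBE1 27.65% ± 0.715, HBG1 16.29% ± 0.133 and HBZ 0.118% ± 0.0197 of the 4 genes (SD, n = 4). The groups of 4 libraries did not overlap between any neighbours in this order. The place of HBE1 and HBG1 in it depended on the length used. With the same counts, HBE1 was 1.70 times HBG1 by TPM and 1.12 times when divided by the bases in 1 TU alone, but 0.369 times per window that was unique and in its own TU. Counts per window, scaled to library size as CPM, averaged 16.65 ± 0.866 for HBG2, 6.78 ± 0.282 for HBG1, 2.50 ± 0.0566 for HBE1 and 0.0312 ± 0.00442 for HBZ (SD, n = 4), so that HBG2 stayed highest and HBZ lowest on both scales. The counts were those of the whole counted TU, whereas the windows were of the 3-exon mRNA only. Counted exon bases outside that mRNA, 362 for HBZ, 295 for HBE1 and 255 for HBG2, thus had no window. The part of reads on those bases in the per-window values was not tested.

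**Figure D1:**
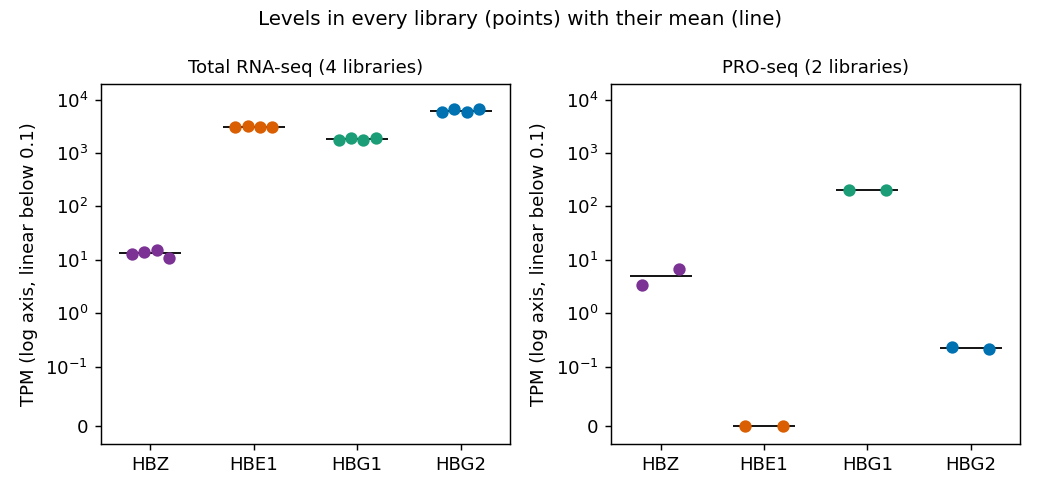
Points are the TPM of each library on a log axis that is linear below 0.1, with lines at the mean, for RNA-seq (left, n = 4) and PRO-seq (right, n = 2). In RNA-seq HBG2, HBE1 and HBG1 lie between 1755 and 6572 TPM and HBZ between 10.98 and 15.4 TPM, whereas in PRO-seq HBG1 is highest at 203.5 and 206.1 TPM and HBE1 is at 0.

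In PRO-seq the order was different. HBG1 had 31 and 32 counts in replicates 1 and 2, or 203.5 and 206.1 TPM on its 589-bp window, and ranked 447 among mRNAs. HBZ had 9 and 18 counts, or 3.40 and 6.67 TPM. HBG2 had 15 and 14 counts, or 0.231 and 0.211 TPM on a window of 251416 bp, and HBE1 had 0 counts in both libraries. The order of HBZ and HBG2 rests on length: their summed counts were 27 and 29, and divided by the bases in 1 TU alone HBZ was at 4.09 and HBG2 at 74.39 TPM. The few counts on each gene contrast with those on the readthrough TU ENSG00000284931, which held 591 and 617 PRO-seq counts (414.5 and 424.5 TPM) and no count in any RNA-seq library. On this annotation no exon base of the readthrough TU was in 1 TU alone, and the part of this in its lack of RNA-seq counts was not tested.

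For HBE1, a count of 0 allows up to 3 counts, or 0.0491 and 0.0482 TPM in replicates 1 and 2, for counting error only. That limit applies to reads counted for its TU and not to transcription of the gene, since no base of its window was in 1 TU. OR51B5, an olfactory receptor gene whose TU overlaps those of HBE1 and HBG2, also had 0 PRO-seq counts in both libraries, with 115, 157, 67 and 103 RNA-seq counts. HBM, whose TU overlaps the end of HBZ, had 83 and 76 PRO-seq counts and 1, 3, 0 and 2 RNA-seq counts, so that more nascent reads were counted on HBM than on HBZ. ENSG00000239920 held 324 and 409 PRO-seq counts and 16, 17, 10 and 15 RNA-seq counts.

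HBG2 and HBG1 were compared directly within each library, where a ratio does not depend on library size. Their mRNAs are near copies but their counted TUs are not, with PRO-seq windows of 251416 and 589 bp. In RNA-seq the ratio of HBG2 to HBG1 was 3.40, 3.49, 3.40 and 3.44 by TPM and 4.02 to 4.13 by counts. It was 2.43 to 2.50 when the counts of each whole TU were divided by its mRNA windows that were unique and in its own TU. The 255 upstream exon bases of HBG2 are not among those windows. In PRO-seq the ratio of counts was 0.484 and 0.438, so that HBG2 was above HBG1 in 4 of 4 RNA-seq libraries and below it in both PRO-seq libraries. The log2 ratio differed between the assays by 11.64 by TPM and by 3.14 by counts, with p = 0.133 in a two-sided exact permutation test of the libraries (n = 4 and 2), the lowest value that test can give with 15 splits.

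Relative half-life is the RNA level divided by the nascent level, both in TPM, a ratio with no time unit that is given here on the log2 scale against the median mRNA. Of the 4 genes, only HBG1 was above both thresholds, which are 10 TPM for PRO-seq and 1 TPM for RNA-seq. HBG1 had a log2 half-life 3.79 ± 0.173 (SE) above the median mRNA (edgeR quasi-likelihood test, Benjamini-Hochberg adjusted p = 4.6e-24). Among all 9929 TUs tested, 40.4% were called above and 50% below the median mRNA, 90.4% in all, so a call alone sets no gene apart. By size, 102 of 8733 mRNAs (1.17%) were higher than HBG1.

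The PRO-seq side of this HBG1 value was 63 counts on a short window. Among the 118 mRNAs with less than 1000 bp left for PRO-seq, 37 were above and 45 below the median mRNA, their median log2 half-life was -0.30, and HBG1 was the highest of them. The direction turned under 1 choice of length only. With the same counts divided by the bases in 1 TU alone, which leaves HBG1 a PRO-seq length of 1 base, its log2 half-life was -4.69 (edgeR adjusted p = 8.0e-18). As no read fits inside 1 base, that value cannot decide the direction.

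HBZ and HBG2 were under the PRO-seq threshold, and their half-lives come from the fit of the 20644 TUs that had 1 count or more in each assay. In that fit 31.7% of TUs were called above and 37.4% below the median mRNA, 69.1% in all. HBZ was 2.63 ± 0.359 (SE) above it on the log2 scale (edgeR adjusted p = 1.5e-15), and 2.25 without PRO-seq replicate 1 and 3.11 without PRO-seq replicate 2. HBG1 was 4.42 ± 0.173 and HBG2 16.02 ± 0.234 above, both past the adjusted p threshold of 0.05. HBE1 had no PRO-seq count and no half-life.

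The HBG2 value turned on its span. With unchanged counts it was 10.97 without any length and 8.10 with lengths of bases in 1 TU alone, of which 608 are PRO-seq bases. HBZ moved less, to 1.84 without length and 2.89 with lengths of bases in 1 TU alone. When the counts of HBG1, HBG2 and the readthrough TU were summed as 1 γ-globin locus on 803 exon bases and 4941 PRO-seq bases, an alternative chosen after seeing the data, the locus held 20153, 23239, 13518 and 17026 RNA-seq counts and 637 and 663 PRO-seq counts. Its log2 half-life was 5.07 ± 0.0473 (SE) above the median mRNA. The lengths are sums of the bases that each of these TUs had alone before summing. Bases that they share only with each other are thus left out of the lengths, though reads there may be in the counts.

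**Figure D2:**
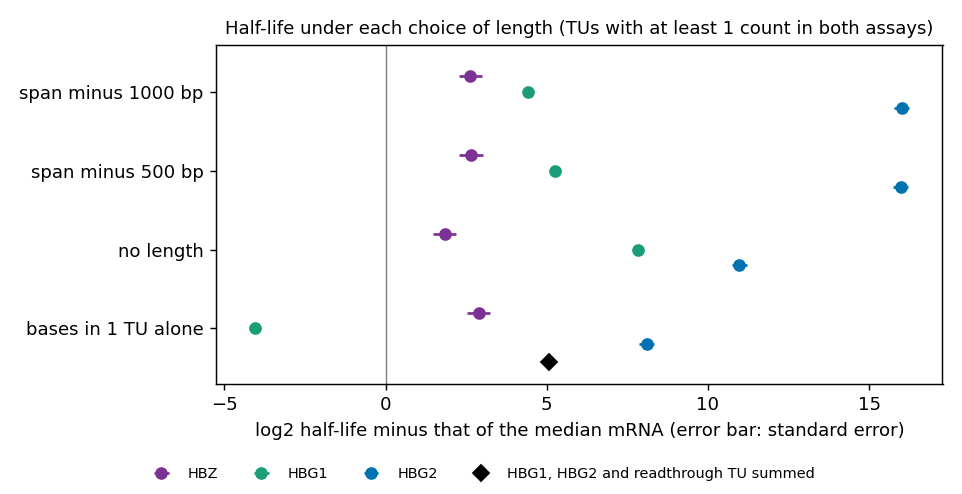
The x axis is log2 half-life minus that of the median mRNA, with standard errors as bars, for HBZ, HBG1 and HBG2 under 4 choices of length on the y axis, over TUs with at least 1 count in both assays. HBZ lies between 1.84 and 2.89 and HBG2 between 8.10 and 16.02. HBG1 turns from 4.42 to -4.05 when the same counts are divided by the bases in 1 TU alone, where its PRO-seq length is 1 base. The black diamond is the summed γ-globin locus at 5.07.

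Among mRNAs, HBG2 and HBE1 stood out by their pairs of levels. Of the 130 mRNAs above 1000 TPM in RNA-seq, 3 had no PRO-seq count, namely HBE1, TMSB10 and OAZ1. For each globin gene the 3 nearest mRNAs were taken by Euclidean distance in log2(TPM + 1) over the 6 libraries. Nearest to HBE1 was TMSB10, which encodes thymosin β10, an actin-binding peptide, at a distance of 0.762 and at 0 PRO-seq counts on a window of 16 bp. OAZ1, the antizyme that controls polyamine synthesis, followed at 1.70, with HBG2 at 2.08, and HBG2 had HBE1 and the same pair as its nearest mRNAs. OAZ1 too had 0 PRO-seq counts and 16 window bases of its own.

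HBG1 lay in a populated region, with EIF3K (a subunit of translation initiation factor eIF3) at a distance of 0.185, PSMB1 (a proteasome subunit) at 0.348 and PRDX1 (a peroxiredoxin) at 0.364. These 3 mRNAs rest on 1884, 1939 and 940 summed PRO-seq counts, where HBG1 rests on 63. HBZ was nearest to CNPY4 at 0.554, MECOM, a transcription factor gene, at 0.627 and PI4K2A, a lipid kinase gene, at 0.684.

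**Figure D3:**
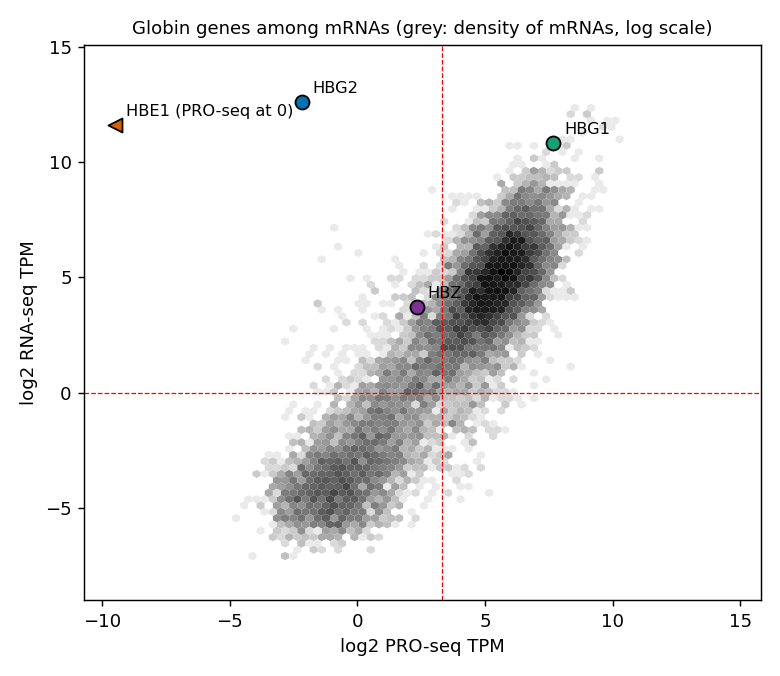
Each mRNA with counts in both assays is part of the grey density (log scale) of log2 RNA-seq TPM against log2 PRO-seq TPM from summed counts, with the globin genes as coloured points and the thresholds of 10 and 1 TPM as dashed lines. HBG1 is within the upper right of the density, HBZ left of the PRO-seq threshold, and HBG2 and HBE1 far to the left of mRNAs of like RNA level; HBE1 has no PRO-seq count and is drawn at the edge.

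Of the 7 other globin genes listed, HBB, HBD and HBM were in the tables. HBB and HBM held few RNA-seq counts, HBD lay above HBZ and below the other members, and HBA1, HBA2, HBQ1 and HBBP1 were not analysed here. ENSG00000290652, a long noncoding gene within the counted span of HBD, had 226, 264, 172 and 178 RNA-seq counts and 0 in both PRO-seq libraries. HBB, adult β-globin, had 1, 0, 0 and 2 RNA-seq counts, and 4 and 0 PRO-seq counts. HBD, the minor adult δ-globin, had 37.7, 38.1, 33.7 and 42.2 TPM in RNA-seq and 141.4 and 134.8 TPM in PRO-seq on a window of 9820 bp. Its log2 half-life was -1.22 ± 0.0976 (SE) relative to the median mRNA, below it (edgeR adjusted p = 3.6e-13), and it was the only one past the TPM thresholds. HBD was counted on a span of 10820 bp, and the part of that span in this value was not tested. In the fit with at least 1 count, 2 of 3 were below (HBD, -0.59, and HBM, -3.78) and none above, with HBB at -1.84 (edgeR adjusted p = 0.165). The median was -1.84 beside -0.50 for all TUs tested. HBM was counted on a span of 12870 bp that overlaps the end of HBZ and holds HBZP1, and had 6 RNA-seq counts in all. The part of that span in the HBM value was not tested.

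The proteins that hold globin mRNAs were also listed. The 4 present were tested: PCBP1 and PCBP2, poly(C)-binding proteins of the α-globin mRNA, and PABPC1 and PABPC4, which bind poly-A tails. All 4 were below the median mRNA, where 50% of all TUs tested were called below. Their log2 half-lives were -1.75, -1.35, -0.54 and -0.79, with a median of -1.07 beside -0.23 for all TUs tested. With at least 1 count, log2 half-lives of the TUs in both fits lay higher by a median of 0.63. Of the 4 genes 3 were still below, and PABPC1 was at 0.09 (edgeR adjusted p = 0.0717). AHSP, the chaperone of α-globin, was not analysed here.

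Of 14 factors of globin switching and activation, 12 were in the tables and 11 were tested, of which 5 were above the median mRNA and 5 below, near the 40.4% and 50% of all TUs tested. When a 2-fold difference was tested, 2 were above and 2 below. Above were LIN28B, an RNA-binding protein of the fetal state, at 1.87, the erythroid transcription factors GATA1 at 1.47 and KLF1 at 0.85, and their cofactors LDB1 at 0.77 and LMO2 at 0.49. Below were ZBTB7A and SOX6, repressors of γ-globin, at -3.46 and -1.57, TAL1 at -0.87, IGF2BP1 at -0.63 and MYB at -0.46. NFE2 was at -0.06 (edgeR adjusted p = 0.285). The median was -0.06 beside -0.23 for all TUs tested. With at least 1 count 7 were above and 3 below, and MYB was at 0.16, after the same shift of all values by a median of 0.63.

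BCL11A, the main repressor of γ-globin in adult cells, had 0 counts in all 4 RNA-seq libraries and 3 and 8 PRO-seq counts. It was the 1 factor present that could not be tested. No RNA-seq read was counted on its counted transcript at this depth, and overlap of that transcript's exons with other TUs was not tested.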

How the data were processed

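The authors trimmed reads with Cutadapt, aligned them with HISAT2 to GRCh38 and deposited raw HTSeq counts per transcript, without normalization; their versions are not given in the sources that were used. Rows naming no TU (66.46% to 68.56% of RNA-seq records, 86.53% and 88.56% in PRO-seq) stayed out of totals. Of 42371 transcripts, 88.12% matched GENCODE release 44 lifted to GRCh37, whose lengths may differ from those counted on. TPM, ranks and windows were computed from these counts with Python 3.11.15. Counts were fitted over all TUs with edgeR 4.0.16 (R 4.3.3) by its quasi-likelihood test, with TMM, length offsets, centring on the median mRNA and an adjusted p threshold of 0.05; the steps were tested on simulated data. DESeq2 1.42.0, other lengths, scalings, minimums, a replicate block and each library left out were alternatives. HBZ and HBG2 did not pass the planned TPM thresholds and are given from the fit with at least 1 summed count in each assay. The limit given for HBE1 covers counting error only, and reads are not independent molecules. Standard errors of half-lives come from the fit, which takes in the spread between libraries.

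Genes named were the 4 members, other globin genes, partners, switching factors and cell markers from lists, TUs overlapping or neighbouring a member, and the 3 mRNAs nearest to each member. The members and lists were chosen with earlier results of these data known. Of the listed markers of K562, 1 is not reported here. Sequences are from the GENCODE transcripts; repeated windows were found by exact matches in GRCh37.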

Additional observations from a re-analysis of the deposited data

How the results depend on the processing

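HBG1 reversed when unchanged counts were divided by the bases in 1 TU alone, with a log2 half-life of -4.69 above the TPM thresholds and -4.05 with at least 1 summed count. Its PRO-seq length is then 1 base, inside which no read fits, so these values cannot decide its direction. Over its other 15 alternatives HBG1 stayed above the median mRNA. HBG2 did so over 16 (7.46 to 16.09) and HBZ over 15 (1.84 to 3.11). With both PRO-seq libraries kept, all these values were past the adjusted p threshold of 0.05. These alternatives reuse the deposited counts, so the 15 of HBG1 cannot test how reads were assigned where its PRO-seq window is shared with other TUs. HBG1 and HBG2 summed on the mean of their lengths gave 13.82, and the γ-globin locus 5.07. TUs above and below the median mRNA numbered 4010 and 4961, and 2138 and 2898 when a 2-fold difference was tested; they numbered 6548 and 7714 with at least 1 summed count, where more TUs were tested.

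The replicate block over RNA-seq and PRO-seq replicates 1 and 2 gave 3.79 for HBG1, 16.03 for HBG2, 2.65 for HBZ, and 3920 TUs above and 4860 below. The differences between replicates 1 and 2 of the assays had a correlation of -0.0113 over 9841 TUs, so the libraries share only a number. No half-life of HBE1, which had no PRO-seq count, could be computed under any alternative, and those above the TPM thresholds could be run for HBG2 only on bases in 1 TU alone and not for HBZ. Low counts limit HBE1 (0 in PRO-seq), HBZ (98 in RNA-seq and 27 in PRO-seq), HBG2 (29 in PRO-seq) and HBG1 (63 in PRO-seq).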
